A study of Mus musculus with 16 samples.

Results

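ATRX-dependent heterochromatin nanodomains (HNDs) near the genes of the chemosensory receptors are described here, that is, regions that carried H3K9me3 in wild-type (WT) mouse embryonic stem cells (ESCs) and lacked it in *Atrx* knockout (KO) cells. A region was taken when it overlapped, or lay within 50 kb of, a GENCODE M1 gene on chromosomes 1 to 19 whose name starts with Olfr, Vmn1r, Vmn2r or Taar. This gave 361 of the 13113 HNDs in the list, or 3.03% of the 11899 HNDs on these chromosomes. They lay around 1694 receptor genes, and the sequence within 50 kb of those genes is called the receptor zone below.

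Olfr genes encode odorant receptors of the main olfactory epithelium, and Vmn1r and Vmn2r genes encode the V1R and V2R receptors of the vomeronasal organ, which detect pheromones and other social cues. Taar genes encode trace amine-associated receptors, most of which are olfactory receptors for volatile amines. These genes lie in tandem arrays with many pseudogenes, a mature sensory neuron typically expresses a very small number of them, and the silent copies in olfactory neurons are known to carry heterochromatin marks that include H3K9me3. ATRX is a chromatin remodeller that acts with DAXX to deposit histone H3.3 at repeats and other heterochromatic sites.

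The H3K9me3 ChIP-seq was made in the WT ESC line wt26 and in the ATRX KO lines KO1-40 and KO1-45, all grown in serum with LIF. H3K9me3, H3, IgG and input were each sequenced in 2 libraries of WT and 2 of KO cells, 16 libraries in all. Which of the KO lines each KO library was made from is not labelled. WT is represented by a single line and the KO by a pair of lines, so effects of a line and of the genotype cannot be told apart. The list has 3 columns and gives positions on mm9. It holds no height, count or score, so the depth behind each HND is unknown and no value has an error between replicates. ESCs are not olfactory cells, and expression of the receptors was not measured here.

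To show what these HNDs look like, the HND with the most bases in receptor exons, or otherwise in or nearest to a receptor gene, is printed for each family, limited to 300 bases of the plus strand of mm9. The Olfr stretch, chr11:74094067-74094366, runs from sequence beside the pseudogene Olfr407-ps1 into its exon, and capitals mark exon bases. The Vmn2r stretch, chr7:7982782-7983081, starts in an exon of the pseudogene Vmn2r-ps49 and runs into its intron, with exon bases in capitals. The Vmn1r stretch, chr7:21548443-21548742, lies in an intron of Vmn1r112, and capitals mark bases covered by 24-base words that occur at least 100 times in mm9. The Taar stretch, chr10:23625732-23626031, lies between genes upstream of Taar1 and holds neither exon bases nor such words.
Olfr407-ps1 HND: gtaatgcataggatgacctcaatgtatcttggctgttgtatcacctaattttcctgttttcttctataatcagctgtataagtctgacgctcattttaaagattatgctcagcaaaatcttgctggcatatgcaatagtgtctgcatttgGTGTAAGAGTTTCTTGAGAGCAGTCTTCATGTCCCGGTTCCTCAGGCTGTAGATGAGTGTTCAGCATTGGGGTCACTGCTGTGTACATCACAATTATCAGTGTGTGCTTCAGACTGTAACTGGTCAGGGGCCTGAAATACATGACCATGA
Vmn2r-ps49 HND: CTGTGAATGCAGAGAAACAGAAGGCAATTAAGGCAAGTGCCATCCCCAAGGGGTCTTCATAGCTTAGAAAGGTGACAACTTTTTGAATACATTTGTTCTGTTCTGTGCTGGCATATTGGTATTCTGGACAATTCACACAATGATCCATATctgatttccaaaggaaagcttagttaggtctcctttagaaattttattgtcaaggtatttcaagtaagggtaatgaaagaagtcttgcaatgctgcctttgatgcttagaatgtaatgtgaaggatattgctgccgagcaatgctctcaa
Vmn1r112 HND: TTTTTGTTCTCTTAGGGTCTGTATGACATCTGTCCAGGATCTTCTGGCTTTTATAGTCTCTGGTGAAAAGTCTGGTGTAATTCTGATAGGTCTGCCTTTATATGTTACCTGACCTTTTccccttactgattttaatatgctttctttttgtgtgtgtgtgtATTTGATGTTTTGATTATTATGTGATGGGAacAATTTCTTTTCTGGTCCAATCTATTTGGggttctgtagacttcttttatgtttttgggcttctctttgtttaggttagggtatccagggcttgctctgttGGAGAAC
Taar1 HND: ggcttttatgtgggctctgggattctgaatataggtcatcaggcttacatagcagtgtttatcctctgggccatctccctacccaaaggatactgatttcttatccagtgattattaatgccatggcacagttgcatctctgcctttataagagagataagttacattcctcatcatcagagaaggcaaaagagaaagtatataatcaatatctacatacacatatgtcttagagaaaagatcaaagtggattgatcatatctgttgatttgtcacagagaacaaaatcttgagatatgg

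HNDs were denser in the receptor zone than on the rest of the same chromosomes. The zone covered 58.2 Mb, or 2.43% of the sequenced autosomal bases, and held 6.21 HNDs per Mb against 4.94 per Mb elsewhere on chromosomes 1 to 19. Even placement of each HND over its own chromosome, computed exactly from its width, gave 283.7 HNDs in the zone. The observed number was 1.27 times this (95% exact Poisson interval 1.14 to 1.41). Such intervals cover counting error only, and since HNDs lie in groups they are too narrow. For comparison, the ratio was 1.29 (1.13 to 1.47) within 50 kb of the 367 genes named Zfp and a number, many of which encode zinc finger proteins that also lie in arrays. It was 1.02 (0.972 to 1.06) in gaps of at least 500 kb between genes and 0.925 (0.903 to 0.947) within 50 kb of other protein-coding genes. Over 50-base words that occur once in mm9 the ratio was 1.53 for the receptor zone and 1.30 for the Zfp genes, so the 2 were close only with placement over all sequenced bases. In all, 21 of the 361 HNDs lay within 50 kb of both kinds of gene.

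Among the families, the V2R genes had the clearest surplus. Near the 179 Vmn2r genes 115 HNDs were found in 13.2 Mb, which is 8.73 per Mb and 1.76 times the expected 65.3 (1.45 to 2.11). Near the 1243 Olfr genes there were 187 HNDs in 34.2 Mb, 5.46 per Mb and 1.12 times the expected 166.4 (0.968 to 1.30). The 256 Vmn1r genes had 62 HNDs in 11.0 Mb, 5.61 per Mb and 1.16 times the expected 53.5 (0.888 to 1.48). With this placement over all sequenced bases, the interval includes 1 for Olfr and Vmn1r. The intervals of Olfr and Vmn2r do not overlap, although the difference itself was not tested. Over words that occur once the ratios were higher, 1.21 for Olfr and 1.80 for Vmn1r, and no intervals were computed for these. The 16 Taar genes share a cluster of 0.289 Mb of zone with 3 HNDs against 1.42 expected, which is too few to give a density. HNDs near genes of 2 or more families numbered 6 and count in each. The Vmn2r ratio was 1.75 when sequence near other families was left out and 1.79 when sequence near Zfp genes was left out, both alternatives chosen after seeing the data.

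**Figure D1:**
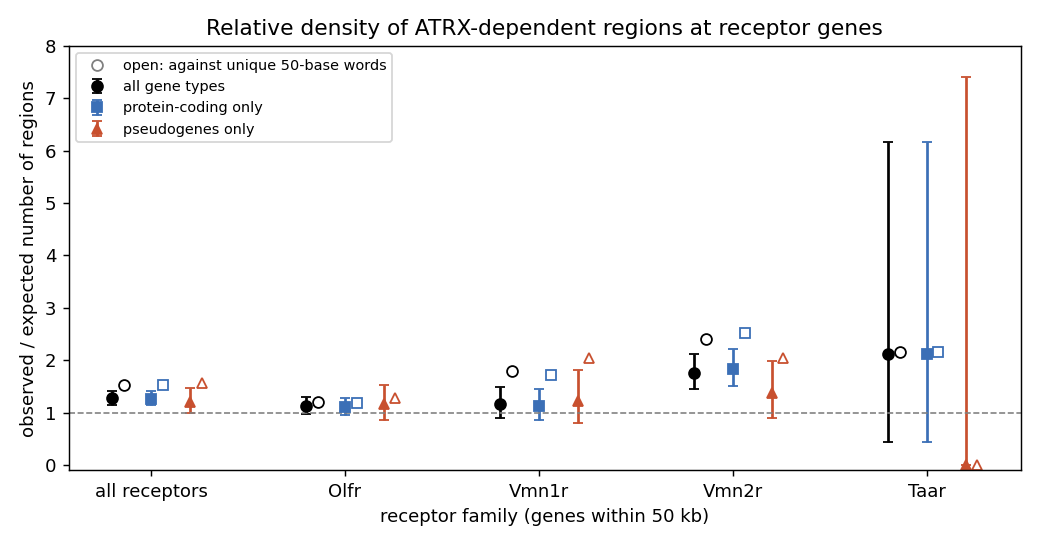
Ratio of observed to expected HNDs (y axis, no unit) within 50 kb of the genes of each family (x axis), for all gene types (circles), protein-coding genes (squares) and pseudogenes (triangles). Filled points use even placement over sequenced bases with 95% exact Poisson intervals, open points even placement over 50-base words that occur once, and the dashed line marks 1. Vmn2r lies highest among the families with more than 3 HNDs, at 1.76.

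Pseudogenes were taken apart from the 1448 protein-coding receptor genes. Around the protein-coding genes 344 HNDs gave 6.19 per Mb and a ratio of 1.27 (1.14 to 1.41). Around the 238 pseudogenes 100 HNDs gave 5.85 per Mb and a ratio of 1.21 (0.984 to 1.47). Both kinds of gene are interspersed, so these groups share 84 HNDs, while 260 were near protein-coding genes and not pseudogenes, 16 near pseudogenes and not protein-coding genes, and 1 near a processed transcript alone. In the Vmn2r family the ratio was 1.84 (1.51 to 2.22) for the 124 protein-coding genes and 1.37 (0.903 to 1.99) for the 52 pseudogenes, with overlapping intervals. It was 1.11 and 1.16 for Olfr and 1.12 and 1.23 for Vmn1r, in the same order. The pseudogene of the Taar family had 0 HNDs nearby against 0.498 expected. The annotation types 33 genes with -ps in their name as protein-coding, 25 Olfr and 8 Vmn2r genes. When genes were taken as pseudogenes by type or by such a name, chosen after seeing the data, the Vmn2r ratio was 1.86 (1.36 to 2.49) for pseudogenes and 1.73 (1.40 to 2.11) for the remaining genes. It was 1.02 and 1.11 for Olfr and 1.26 and 1.24 for all receptors, in the same order. The order for Olfr, for Vmn2r and for all receptors therefore depended on the typing, which takes the 4 genes from Vmn2r-ps100 to Vmn2r-ps106 on chromosome 13 as protein-coding. Under either typing the intervals overlapped.

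Receptor arrays hold near-identical copies, and the study kept uniquely mapped reads, so the share of sequence that occurs once bears on the counts. Of 50-base words in the receptor zone 73.4% occurred once in mm9, against 89.8% outside it. The share was 82.8% near Olfr, 56.4% near Vmn1r and 63.4% near Vmn2r genes. When HNDs were placed evenly over words that occur once, the ratio was 1.53 for all receptors, 1.21 for Olfr, 1.80 for Vmn1r and 2.40 for Vmn2r. The list nevertheless held HNDs in which no 50-base word starting inside occurred once. These were 64 of the 361 HNDs, or 17.7% (95% Wilson interval 14.1 to 22.0), against 8.92% of the other autosomal HNDs. They included 26 of the 62 HNDs near Vmn1r, 19 near Vmn2r and 19 near Olfr genes. With such HNDs left out, an alternative chosen after seeing the data, the ratio was 1.17 for all receptors, 1.12 for Olfr, 0.770 for Vmn1r and 1.66 for Vmn2r. The expectation in these values still covered all sequenced bases. With expected numbers over words that occur once, the ratio without these HNDs was 1.41 for all receptors and 1.21 for Olfr. It was 1.18 for Vmn1r and 2.26 for Vmn2r. No intervals were computed for family ratios over such words.

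**Figure D2:**
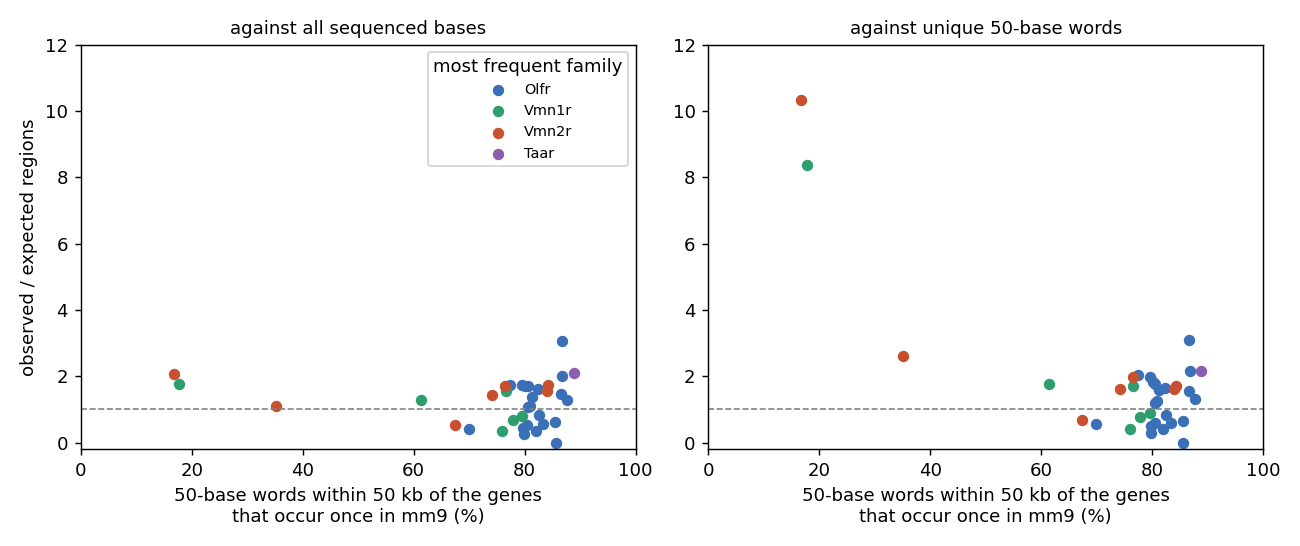
Ratio of observed to expected HNDs (y axis, no unit) against the percentage of 50-base words within 50 kb of the genes that occur once in mm9 (x axis) for the 35 clusters of at least 10 receptor genes, coloured by the most frequent family. Even placement used all sequenced bases on the left and words that occur once on the right, where the clusters of Vmn1r91 to Vmn1r183 and of Vmn2r29 to Vmn2r-ps49 stand at 8.37 and 10.3. Without HNDs that hold no such word these values are 3.81 and 6.74.

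Receptor genes with gaps of up to 500 kb were joined into 81 clusters, of which 22 were single genes. More HNDs than expected were found in 44 clusters and fewer in 37, and 19 clusters, 12 of them single genes, had 0 HNDs. Among the 25 clusters of at least 20 genes, 15 lay above and 10 below, with a median ratio of 1.10. The 18 clusters of at least 10 genes that were purely Olfr held 119 HNDs against 114.2 expected. The ratio of these sums was 1.04 (0.864 to 1.25). The 12 clusters of this size with a Vmn2r gene held 122 against 86.1, a ratio of 1.42 (1.18 to 1.69), and 10 of them lay above expectation. The difference between these groups was not tested, and their intervals overlap. Over the 35 clusters of at least 10 genes, the number of genes per Mb had a Spearman rho of -0.140 with the ratio, a description over clusters that share chromosomes.

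**Figure D3:**
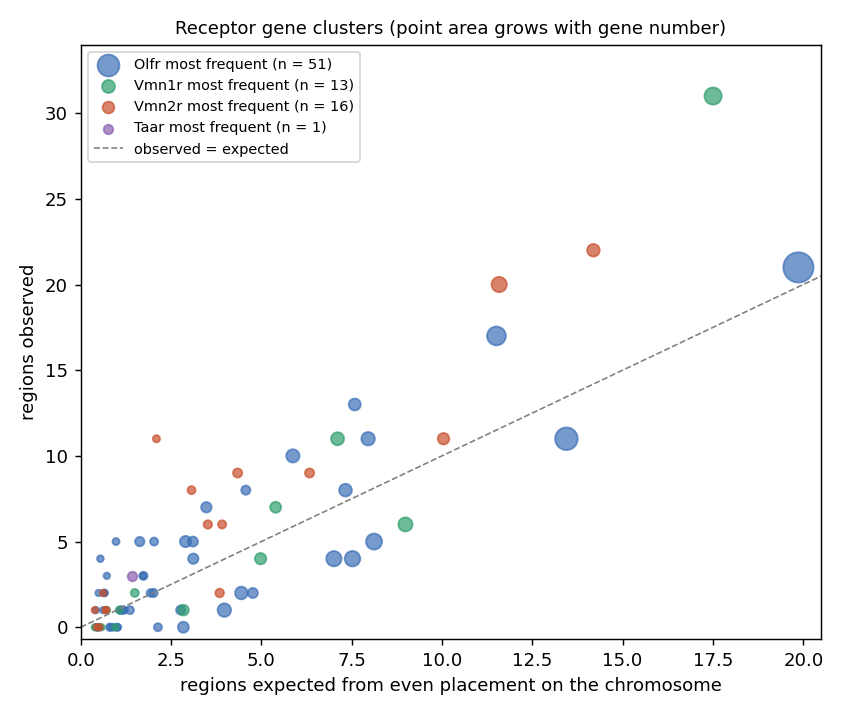
HNDs observed (y axis) against HNDs expected from even placement on the same chromosome (x axis) in each of the 81 clusters, with colour for the most frequent family, point area growing with the number of genes and the dashed line at equality. The cluster farthest above the line in number of HNDs is that of Vmn1r91 to Vmn1r183, with 31 observed and 17.5 expected.

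The ratios of the V1R arrays of at least 20 genes ranged from 0.351 to 1.77, with intervals that overlap. The cluster from Vmn1r91 to Vmn1r183, chr7:20686507-24840710, had 79 genes and 31 HNDs, 8.83 per Mb and 1.77 times the expected 17.5 (1.20 to 2.51). Of its 50-base words 17.7% occurred once, and 19 of its 31 HNDs held no such word. Without this cluster the Vmn1r ratio was 0.861, so the ratio above 1 of the family rested on it. The other V1R arrays of at least 20 genes lay on either side of expectation. There was 1 HND against 2.85 expected from Vmn1r-ps25 to Vmn1r54 (chr6:89648711-90220047). From Vmn1r4 to Vmn1r31 (chr6:56906460-58422872) 4 were found and 4.98 expected. The mixed array from Olfr1370 to Vmn1r223 (chr13:21164218-23342192) had 6 against 8.99. More than expected were found from Vmn1r-ps53 to Vmn1r-ps69 (chr7:12238479-13829711), with 11 against 7.11, and from Vmn1r55 to Olfr1350 (chr7:5097820-6523630), with 7 against 5.40. In the latter 4 of the HNDs held no word that occurs once, and without these its ratio over such words was 0.892.

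Each array of at least 20 genes in which V2R genes are the most frequent lay above its expectation. The cluster of Vmn2r-ps62 to Vmn2r79, chr7:91958938-94186478, which holds 60 genes with Olfr genes among them, had 20 HNDs and a ratio of 1.73 (1.05 to 2.67). Here 84.3% of words occurred once, and the ratio over such words was nearly the same at 1.72. The cluster of Vmn2r90 to Vmn1r237, chr17:17840905-21451873, had 22 HNDs and a ratio of 1.55 (0.972 to 2.35), and that of Vmn2r37 to Vmn1r71, chr7:8954257-11334887, had 11 and a ratio of 1.10 (0.547 to 1.96). Over words that occur once, which were 35.2% of the latter, its ratio was 2.61, or 2.23 without the 3 HNDs that hold no such word. A further 3 clusters were chosen after their values were seen. The genes Vmn2r-ps100 to Vmn2r-ps106, chr13:66045463-66787891, had 11 HNDs against 2.10 expected, a ratio of 5.24. Of the words there 19.4% occurred once, and over these the ratio was 23.9, or 16.9 without the 4 HNDs that hold no such word. The genes Vmn2r111 to Vmn2r117, chr17:22684908-23616564, had 8 against 3.07. The latter include Vmn2r116, the receptor for the male pheromone peptide ESP1. The genes Vmn2r1 to Vmn2r-ps12, chr3:63885564-64648687, had 2 against 3.85 (ratio 0.520, 0.0630 to 1.88). Without the chromosome 13 cluster the Vmn2r ratio was 1.65, an alternative also added after seeing the data.

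The odorant receptor arrays ranged from 0 to a ratio of 2.01 among those of at least 20 genes. Smaller clusters are less well counted, and the clusters of 2 to 9 genes of all families together had a ratio of 1.66 (1.26 to 2.14), against 1.18 (1.04 to 1.34) for those of at least 20 genes. Among the small Olfr clusters, chosen after their values were seen, Olfr461 to Olfr460 (chr6:40494035-40522416) had 4 HNDs and a ratio of 7.32 (1.99 to 18.7). This was the highest of all clusters with placement over all sequenced bases. Over words that occur once it was 8.32, below the 23.9 of Vmn2r-ps100 to Vmn2r-ps106. Olfr372 to Olfr374 (chr8:74581559-74634408) had 5 HNDs and a ratio of 5.11 (1.66 to 11.9) over all sequenced bases. The array of 268 genes from Olfr987 to Olfr1274-ps, chr2:85171054-90241831, had more genes than any other and held 21 HNDs against 19.9 expected (ratio 1.06, 0.654 to 1.62). The array of Olfr543 to Olfr692, chr7:109625287-112517869, had 11 HNDs among 145 genes against 13.4. From Olfr151 to Olfr986, chr9:37518857-39995679, 17 were found and 11.5 expected. Olfr151 is known as M71, a receptor much used to study receptor choice. The array from Olfr30 to Olfr311, chr11:58268417-58655544, had 7 against 3.48. Olfr20 to Olfr412, chr11:73164341-74179111, had 11 against 7.96, and Olfr467 to Olfr519, chr7:114958094-116037934, 10 against 5.87. These lay above expectation with intervals that include 1.

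Some large arrays held few HNDs. The 25 genes from Olfr693 to Olfr716, chr7:113821048-114291843, had 0 HNDs against 2.84 expected, a ratio of 0 with an upper bound of 1.30. The 44 genes from Olfr1275 to Olfr1318, chr2:111070975-111997157, had 1 against 3.98. The array from Olfr90 to Olfr136 beside the major histocompatibility complex, chr17:37222136-38473042, had 4 against 7.01 at 60 genes. Lower than expected were also Olfr9 to Vmn2r87 (chr10:128426905-129934435) with 4 against 7.52, Olfr1417 to Olfr1505 (chr19:11902567-13994534) with 5 against 8.12, and Olfr334-ps1 to Olfr368 (chr2:36140548-37188253) with 2 against 4.45. The upper bounds of these ratios were all above 1, so a lack of HNDs was not detectable at these counts for any of these arrays alone. The remaining large arrays lay near or above expectation. They were Olfr458 to Olfr47 (chr6:42410075-43186635) with 4 against 3.12 (a ratio of 0.363 over words that occur once, without the 3 HNDs that hold none), Olfr24 to Olfr18 (chr9:18559100-20140538) with 8 against 7.33, Olfr722 to Vmn2r89 (chr14:50513935-52080968) with 13 against 7.59, and Olfr172 to Olfr209 (chr16:58760265-59362042) with 5 against 2.90.

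The trace amine receptors form the cluster chr10:23640162-23829388 from Taar1 to Taar9. None of its 3 HNDs lay between its genes. They lay upstream of Taar1, the family member best known from the brain, at chr10:23625732-23626271, chr10:23618018-23618022 and chr10:23612015-23612380. Their distances to Taar1 were 13890, 22139 and 27781 bp and their widths 540, 5 and 366 bp.

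**Figure D4:**
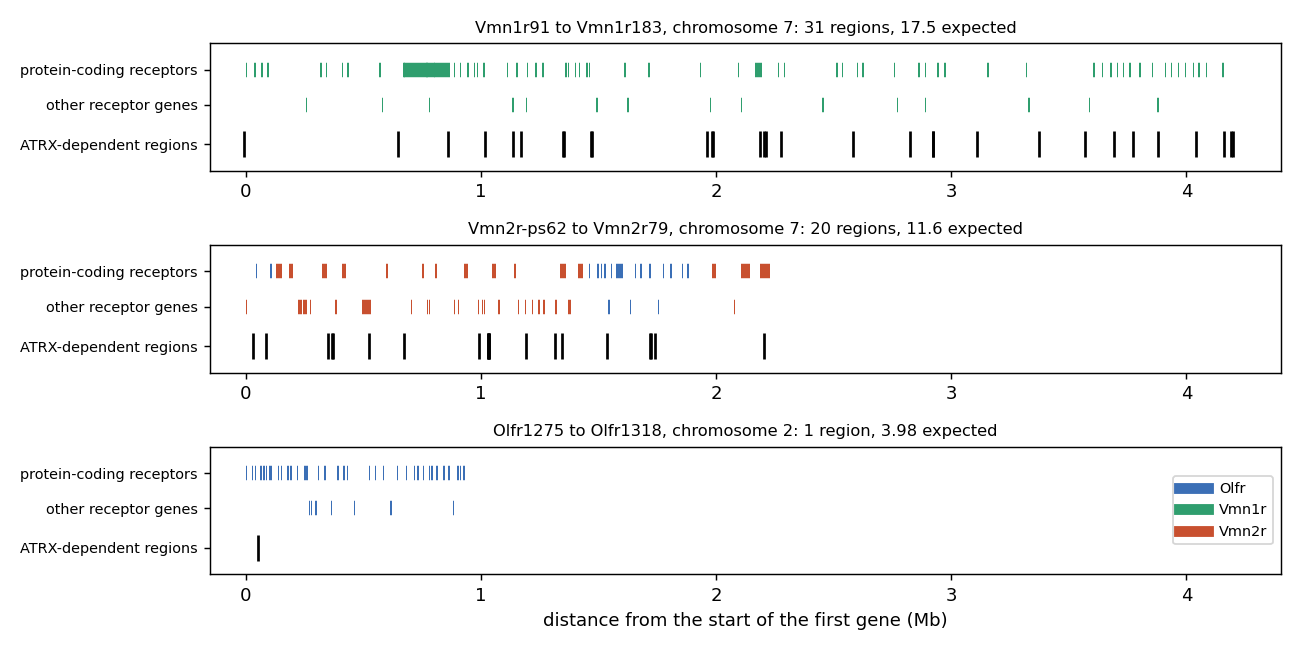
Maps of 3 clusters with the distance from the start of the first gene on the x axis (Mb), coloured bars for protein-coding and other receptor genes (short genes drawn wider to be visible) and black ticks for HNDs. The Vmn1r array holds 31 HNDs, the Vmn2r and Olfr array 20 and the Olfr array on chromosome 2 holds 1.

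Density inside the zone ranged from 0 to 25.4 HNDs per Mb between chromosomes. Of the 18 chromosomes with receptor genes, 12 had more HNDs per Mb inside the zone than outside and 6 had fewer, namely chromosomes 1, 2, 3, 15, 18 and 19. The mean was 6.63 ± 5.33 per Mb inside and 4.94 ± 0.842 outside (SD over the 18 chromosomes). Chromosome 7, with 498 receptor genes, carried 127 of the 361 HNDs, 7.01 per Mb inside and 4.68 outside. Chromosome 8 had the highest value, 25.4 per Mb, from 9 HNDs around 5 Olfr genes in 0.355 Mb. In 1 Mb bins the shift was small. The 47 bins with at least 50% of their bases in the zone had a median of 5 HNDs (quartiles 3 and 7), and the 2240 bins without zone had a median of 5 (3 and 6).

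Within the zone, fewer HNDs than expected overlapped receptor genes. Of the 361 HNDs, 30 overlapped a receptor gene body, where even placement inside the zone gave 44.8 (ratio 0.670, 0.452 to 0.957). Exons were touched by 5 HNDs against 19.7 expected (0.253, 0.0822 to 0.591) and introns by 27 against 30.4 (0.889, 0.586 to 1.29). Within 1 kb of a gene start there were 4 HNDs against 25.0 expected (0.160, 0.0436 to 0.410). The ratios over words that occur once were similar, 0.674 for bodies, 0.235 for exons and 0.138 for starts. That placement does not adjust for repeated words. Words with at least 100 copies, as in the printed sequences above, made up 0.162% of words in receptor exons and 14.4% in introns. In the zone outside receptor gene bodies they made up 17.7%, and 83.1% of the 361 HNDs held such a word. Whether this bears on the low ratios in exons and at starts was not tested. For protein-coding receptor genes alone the ratio was 0.663 (0.433 to 0.971) for bodies and 0.0939 (0.0114 to 0.339) for starts. For receptor pseudogenes it was 0.944 (0.307 to 2.20) for bodies, 0.800 (0.0968 to 2.89) for exons and 0.569 (0.0689 to 2.06) for starts, so a low number was not detectable there. Other protein-coding genes showed ratios below 1 as well, with 0.747 for bodies, 0.543 for exons and 0.676 for starts, computed in the same way. The interval of the ratio at receptor starts lies below that at other gene starts (0.573 to 0.792), but the difference was not tested. The median length is 957 bp for Olfr and 927 bp for Vmn1r genes, so 1 kb from a start can cover the whole gene. The low ratios at receptor starts and in exons are therefore not separate results. Whether annotated receptor starts are starts of transcription was not examined.

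By distance from the nearest gene, the ratio to even placement over the chromosome was 0.839 (0.566 to 1.20) in gene bodies and 0.877 (0.678 to 1.12) up to 5 kb away. It was 1.45 (1.14 to 1.81) at 5 to 10 kb, 1.65 (1.33 to 2.03) at 10 to 20 kb and 1.51 (1.22 to 1.83) at 20 to 50 kb. Beyond the zone it was 1.15 at 50 to 100 kb and 1.03 at 250 to 500 kb. Over words that occur once the ratio was 1.03 in gene bodies and 0.940 up to 5 kb away. In the bodies of Vmn2r genes it was 1.19 (0.748 to 1.81), and 1.60 over such words. Around Olfr genes the highest ratio was 1.53 (1.15 to 2.01) at 5 to 10 kb, and around Vmn1r genes 1.72 (1.08 to 2.61) at 10 to 20 kb. Around Vmn2r genes it was 2.39 (1.75 to 3.19) at 20 to 50 kb. At that distance it was 1.19 (0.852 to 1.62) for Olfr and 1.11 (0.647 to 1.78) for Vmn1r, with intervals that include 1. The Vmn2r ratio was still 1.49 (1.17 to 1.88) at 250 to 500 kb. Outside gene bodies, 158 HNDs lay upstream and 173 downstream of the nearest receptor gene, at a median distance of 12090 bp. Between the first and last gene of clusters of more than 1 gene the ratio was 1.26 (1.13 to 1.41), and in the 50 kb outside them 1.33 (0.953 to 1.82).

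**Figure D5:**
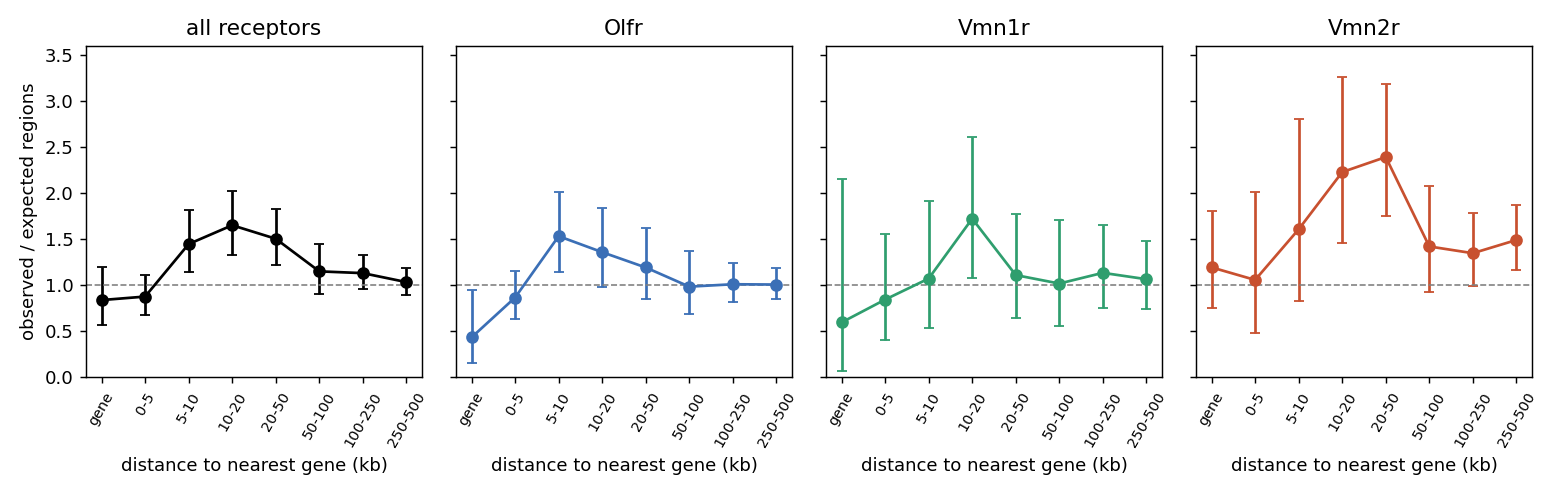
Ratio of observed to expected HNDs (y axis, no unit) by distance to the nearest receptor gene in kb (x axis, unequal steps), for all receptors, Olfr, Vmn1r and Vmn2r genes, with 95% exact Poisson intervals and a dashed line at 1. For all receptors the ratio is 0.839 in gene bodies and reaches 1.65 at 10 to 20 kb.

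The 5 HNDs in exons touched the genes Olfr332, Olfr56, Olfr522, Olfr407-ps1 and Vmn2r-ps49. The HND chr11:58303804-58304135 lay entirely in the coding sequence of the odorant receptor gene Olfr332, 332 bp in width. The HND chr11:48948176-48948290 lay in coding sequence of Olfr56 with all of its 115 bp. In Olfr522 the HND chr7:147347364-147348194 covered 357 exon bases, 283 of them coding. These are annotated as protein-coding, and every 50-base word in these 3 HNDs occurred once. The pseudogene Olfr407-ps1 had 383 exon bases in the HND chr11:74093832-74094691. In Vmn2r-ps49 the HND chr7:7982782-7983284 covered 150 exon bases, and none of its words occurred once.

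HNDs in introns were mostly in V2R genes, which are long, with a median of 18104 bp against 957 bp for Olfr and 927 bp for Vmn1r genes. Of the 30 HNDs in gene bodies 22 were in Vmn2r genes, 6 in Olfr and 2 in Vmn1r genes. Near Vmn2r genes the number in bodies was 0.732 times the expected 30.05 (0.459 to 1.11). Examples with many bases in the body are the HND of 986 bp in Vmn2r35, chr7:7743660-7744645, and that of 843 bp in the pseudogene Vmn2r-ps56, chr7:49021469-49022311. In Vmn1r genes the HNDs were chr7:21548443-21548910 in Vmn1r112 and chr7:22874490-22874620 in Vmn1r139. The V1R HND next in order, chr7:12888101-12888987, lay 1166 bp from Vmn1r82.

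Counted by gene, 28 of the 1694 receptor genes (1.65%) had an HND in their body, against 10.8% of 19970 other protein-coding genes. The share was 11.7% of Vmn2r, 0.781% of Vmn1r and 0.402% of Olfr genes. An HND within 50 kb was found for 61.5% of Vmn2r, 43.4% of Vmn1r, 39.7% of Olfr and 18.8% of Taar genes. For other protein-coding genes it was 40.6%. These shares are not adjusted for gene length, whereas the ratios for bodies given above are (0.670 for receptors and 0.747 for other protein-coding genes). Neighbouring genes share HNDs, so genes are not independent.

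HNDs in the receptor zone were somewhat narrower than the others with all chromosomes pooled, but not on every chromosome. Their median width over all chromosomes was 386 bp (quartiles 192 and 672) against 418 bp (231 and 765) for the other autosomal HNDs. Of the members 26.6% (22.3 to 31.4, Wilson) were under 200 bp, against 20.3% (19.6 to 21.0). Over the 14 chromosomes with at least 5 members, however, the median width was 433 ± 134 bp for members and 424 ± 35.5 bp for others (mean ± SD), and members were narrower on 6 of them. Each chromosome has the same weight in these means, although some had few members. Chromosome 7, with 127 members, had medians of 314 bp for members and 410 bp for others. The widest members were 3575 bp near Vmn2r120 (chr17:57713455-57717029), 2619 bp near Vmn2r116 (chr17:23512262-23514880) and 2545 bp near Olfr1126 (chr2:87322804-87325348). The latter 2 lay between receptor genes, and the first lay beyond Vmn2r120, the last receptor gene of its chromosome.

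Members lay close to another HND somewhat more often than the rest. The shares below are not adjusted for the higher density of HNDs in the zone, so they are not a separate result. A neighbour within 10 kb was found for 25.5% (21.3 to 30.2) of members and 20.0% (19.3 to 20.8) of other HNDs. By family the share was 33.0% (25.1 to 42.1) near Vmn2r, 22.6% (14.0 to 34.4) near Vmn1r and 19.8% (14.7 to 26.1) near Olfr genes. The share near Olfr genes was thus no higher than that of other HNDs. The most HNDs within 100 kb were 5, found in each of 2 places. In the chromosome 7 array of Vmn2r-ps62 to Vmn2r79, the HND chr7:92949130-92949324 lay 1683 bp from the pseudogene Vmn2r-ps75. The other 4 lay 12257 to 15500 bp from Vmn2r73, from chr7:92990290-92990556 to chr7:92993394-92993799. In the other place, on chromosome 8, the 5 HNDs from chr8:74573050-74573822 to chr8:74638698-74639226 lay 2998 to 7736 bp from Olfr372, Olfr373 or Olfr374. Groups of this kind are the reason why the counting intervals are too narrow.

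Repeated sequence was frequent in the members. A 24-base word with at least 100 copies in mm9, tandem units of up to 6 bases left out, was found in 83.1% (78.9 to 86.6) of members and 71.1% (70.3 to 71.9) of other HNDs. The sequence of the receptor zone was itself richer in such words, with 16.9% of words against 9.47% outside. In gene deserts 13.1% of words had as many copies, and 78.1% of HNDs there held such a word. In each of 4 width classes the share was higher in members, with 76.0% against 64.4% below 200 bp and 84.9% against 70.4% from 400 to 800 bp. The part of the zone's sequence in this difference was not tested further. The G+C content was 43.2% in members and 44.9% in other HNDs, where the zone had 39.3% and the remaining sequence 42.0%, so HNDs were richer in G and C than their surroundings in both.

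Telomere-like and G-rich motifs, at which ATRX is known to act, were no more frequent in members. The hexamer TTAGGG, on either strand, was present in 19.9% (16.1 to 24.4) of members and 20.1% (19.4 to 20.8) of other HNDs. A run pattern of 4 stretches of at least 3 G with 1 to 7 bases between them, on either strand, was present in 6.09% (4.06 to 9.05) and 6.75% (6.31 to 7.22). It was found in 13 of the 187 HNDs near Olfr, 7 of the 62 near Vmn1r and 2 of the 115 near Vmn2r genes. A match is only a match of letters. The paper reported higher shares of both motifs over its whole list, found with other search tools, and the reason for the difference was not examined.

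At the 50 kb limit, the outermost members lay 47937, 48955 and 49533 bp from a receptor gene and were 1196, 429 and 170 bp wide. The nearest HNDs outside lay 50246, 51099 and 51581 bp away and were 206, 272 and 257 bp wide.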

How the data were processed

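H3K9me3 ChIP-seq libraries of WT and ATRX KO ESCs, 2 each, were analysed by the authors beside H3, IgG and input libraries. The authors mapped single-end reads to mm9 with Bowtie2, kept uniquely mapped reads, called peaks in the broad mode of MACS2 and, with BEDTools, retained those of WT cells that KO cells lacked. How replicates were joined was not given in the sources used here. The deposited list gives positions in bp, with 0 columns for individual libraries. Starts are counted from 1.

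Gene positions came from GENCODE M1. Expected numbers were computed exactly, without draws: each region kept its width and could start at any sequenced base of its chromosome (position inside the zone: any base where it touches the zone). In an alternative, starts were restricted to a 50 bp grid of 50-base words that occur once in mm9 on both strands. Intervals are exact Poisson for counts and Wilson for shares (95%). No test was made, since the list is pooled. Both calculations were tested on simulated sequences. Named were clusters of at least 20 receptor genes, the Taar cluster, per family up to 3 HNDs with the most exon or body bases, the 3 widest HNDs, those of the densest 100 kb, genes with an exon overlapped, genes nearest to these and first and last genes of clusters. The members and lists were chosen with earlier results of these data known. Python 3.11.15, numpy 2.4.6, pandas 2.3.3, scipy 1.17.1, numba 0.67.0, statsmodels 0.14.6 and matplotlib 3.10.9 were used.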

Additional observations from a re-analysis of the deposited data

Results flagged for a closer look

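Chromosome X was not part of the counts above. It carries 10 receptor genes, 8 of them Olfr genes, and 6 HNDs lay within 50 kb of them. Even placement of the 1040 HNDs of this chromosome gave 5.70 there, a ratio of 1.05 (95% exact Poisson interval 0.386 to 2.29). Of the 6, 0 lay in a gene body. Members and HNDs of chromosome X were not compared further.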

How the results depend on the processing

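The ratio for all receptors was above 1 under all 15 alternatives run (1.17 to 1.53), as was that of Olfr under 15 (1.02 to 1.21) and that of Vmn2r under 16 (1.37 to 2.40). Even placement over words that occur once gave 1.53 for all receptors, 1.80 for Vmn1r and 2.40 for Vmn2r, and 2.26 for Vmn2r when HNDs without such a word were also left out. The Vmn1r ratio was 0.861 without the cluster with the most HNDs, 0.770 without HNDs that lack a word occurring once (1.18 if the expectation was also over such words), and 0.952 without HNDs under 200 bp. Pseudogenes alone gave 100 members, a ratio of 1.37 for Vmn2r and 0 for Taar. Counting -ps names as pseudogenes gave 1.86 for Vmn2r and 0 for Taar. Without HNDs under 200 bp the median width was 527 bp. With at least 1000 copies the share holding a repeated word was 57.9%, and a gap of 100 kb gave 157 clusters. The cause was not tested, except where the alternative itself leaves out genes or HNDs or sets a stricter limit. Alternatives on Zfp genes, other families, HNDs without a word occurring once, -ps names and the cluster of highest ratio among those with at least 10 HNDs were chosen after seeing the data. No paired analysis was possible because single libraries have no values here, and leaving out a replicate gave no value for the same reason. The unknown depth limits what can be said of any single HND.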
